A study of Mus musculus with 2 samples.

Results

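The granzyme gene family was examined by RNA-seq in γδ T cells from mouse spleen, with 1 library of cells labelled as freshly isolated and 1 of cells expanded with IL-2. Its members were taken as the rows of the count table whose symbol is Gzma, Gzmb, Gzmc, Gzmd, Gzme, Gzmf, Gzmg, Gzmk, Gzmm or Gzmn, which gave 10 of 24091 genes. The family was selected on its difference between these same libraries, so its levels and ratios are given as a description and nothing is tested on them. γδ T cells are T lymphocytes whose receptor is built from a γ and a δ chain. Per the labels, sorted cells were activated with anti-CD3 fixed to the plate and anti-CD28 in solution, with recombinant mouse IL-2 at 100 U/ml, and the expansion lasted 5 days. The growth and treatment protocols read the same for both libraries, and the extraction protocol speaks of cultured cells, so that the first library is uncultured only by its treatment label and the series design. The ratios below therefore join activation, culture and IL-2, whose effects cannot be told apart. Strain, genotype, sex and age of the mice, and whether animals were pooled, are not given in the sources used here.

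Granzymes are serine proteases stored in the granules of cytotoxic lymphocytes and released onto target cells together with perforin, which lets them enter. Granzyme B cuts after aspartate and activates caspases and Bid in the target cell, granzymes A and K cut after basic residues, and granzyme M prefers methionine. Granzymes C, D, E, F, G and N belong to a gene cluster expanded in rodents beside Gzmb, and the human genome has no direct counterparts of them. As background, resting lymphocytes hold little granzyme B protein, and activation with IL-2 is known to induce Gzmb in T cells.

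Reads assigned to genes numbered 20379385 (freshly isolated) and 22204099 (expanded). Counts were divided by the scaled library size and multiplied by 1000000 to give CPM, and 1 count corresponded to 0.0465 and 0.0476 CPM. With 1 library in each group, no difference had a replicate check, and the 95% intervals given (exact) reflect counting error alone. In such bulk libraries, fewer cells of a type and less RNA per cell cannot be told apart. T cell markers were present in both libraries: of 8 listed, 6 lay within 2-fold and Lck and Cd2 were lower by 2-fold or more in expanded cells, with Cd3e at 734 and 688 CPM. Of the 11715 genes averaging 1 CPM or more, 25.0% were lower by 2-fold or more. B cell and macrophage markers were found mainly in the freshly isolated library. The 7 B cell markers summed to 911 CPM there, of which Jchain gave 784, and 3.71 CPM in the expanded library, where 4 were at 0 counts. The 8 macrophage markers summed to 768 and 0.190 CPM, with 5 at 0 counts in the expanded library, and the part of these cells in the granzyme ratios was not tested.

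The 10 genes lie at 3 places of the genome (coordinates as deposited, build GRCm38). Gzmb, Gzmc, Gzmd, Gzme, Gzmf, Gzmg and Gzmn stand together on chromosome 14, all on the minus strand, between the start of Gzme at 56117619 and the end of Gzmb at 56262260. In order along the chromosome, the spans are 56117619 to 56132593 (Gzme), 56129568 to 56132593 (Gzmd), 56156581 to 56159579 (Gzmg), 56165796 to 56174599 (Gzmn), 56205263 to 56234657 (Gzmf), 56231401 to 56234657 (Gzmc) and 56258858 to 56262260 (Gzmb). Gzma (113093827 to 113100981) and Gzmk (113171874 to 113180897) stand on the minus strand of chromosome 13, and Gzmm (79689020 to 79695261) on the plus strand of chromosome 10. Each has 5 coding exons and between 741 and 792 coding bases in GENCODE M21. The coding stretch around the codon of the active site serine shows how the members relate, and 63 bases of the spliced coding sequence (from GENCODE M21, build GRCm38) are printed for 8 of them, with the 5 codons that hold the serine in capitals.
Gzmb: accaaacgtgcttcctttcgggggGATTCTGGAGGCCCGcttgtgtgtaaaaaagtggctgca
Gzmc: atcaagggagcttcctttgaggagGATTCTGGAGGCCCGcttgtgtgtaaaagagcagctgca
Gzmd: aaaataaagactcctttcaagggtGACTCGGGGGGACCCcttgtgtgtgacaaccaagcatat
Gzme: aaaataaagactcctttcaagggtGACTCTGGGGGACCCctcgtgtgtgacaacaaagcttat
Gzmf: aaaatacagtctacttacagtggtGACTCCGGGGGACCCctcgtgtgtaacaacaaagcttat
Gzmg: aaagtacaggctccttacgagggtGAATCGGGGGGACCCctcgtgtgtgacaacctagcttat
Gzma: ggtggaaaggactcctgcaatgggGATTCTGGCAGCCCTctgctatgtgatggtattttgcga
Gzmm: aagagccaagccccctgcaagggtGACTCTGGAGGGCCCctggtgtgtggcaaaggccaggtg
Against Gzmd, this stretch differed at 4 bases in Gzme, 9 in Gzmg, 11 in Gzmf, 29 in Gzmc, 28 in Gzmb, 35 in Gzma and 24 in Gzmm. Gzmc was closer to Gzmb there, with 10 differences. Over whole coding sequences, Gzmd and Gzme were identical at 93.3% of aligned positions, and the 10 pairs among Gzmc to Gzmg ranged from 71.1% to 93.3%. Gzmb shared 64.9% to 75.6% with Gzmc to Gzmg, highest with Gzmc. Gzma and Gzmk shared 54.8%, and Gzmm shared 48.5% to 52.6% with the other 9.

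Near-identical transcripts bear on how counts were assigned. Of all stretches of 50 bases in the Gzmd transcript, 21.9% occur in another granzyme transcript, as do 20.6% of those in Gzme, 19.8% in Gzmg, 7.36% in Gzmf, 6.06% in Gzmn and 4.14% in Gzmc. For Gzma, Gzmb, Gzmk and Gzmm the share was 0%. With stretches of 100 bases, it was at most 0.247% (Gzmg). The read length is not given in the sources used here, and reads that match several genes may have been left out or split. By the share of stretches, this touches Gzmd, Gzme and Gzmg most. Gzmn had only 32 counts in the expanded library, far fewer than Gzmg (60925), with which it shares most stretches. In addition, the deposited span of Gzme runs to 56132593, which is also the start of the minus-strand gene Gzmd, and that of Gzmf runs to 56234657, the start of Gzmc, and how counts were divided between the members of each pair is therefore uncertain. Of the 50-base stretches of Gzmf, 12.1% also occur in the annotated gene Gm4022, with both strands searched together. The strand of these matches was not recorded, and whether counting used the strand is not given in the sources used here.

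Gzmb and Gzma were the most abundant granzymes in the expanded library and were low in the freshly isolated library. Gzmb had 327 counts (15.2 CPM) in the freshly isolated and 593762 counts (28245 CPM) in the expanded library, a ratio of 1859 (interval 1668 to 2079). No other gene of the table had more counts than Gzmb in the expanded library, whereas in the freshly isolated library it ranked 7744 of the 15236 genes detected. Gzma had 189 counts (8.78 CPM) and 265604 counts (12635 CPM), a ratio of 1439 (interval 1248 to 1668), and moved from rank 8844 to rank 3. Both genes were thus present without expansion, at levels well above the 0.139 CPM that 3 counts represent.

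The cluster genes Gzmc to Gzmg were at or near the limit of detection in the freshly isolated library and abundant in the expanded one. Gzmc had 11 counts (0.511 CPM) and 72822 counts (3464 CPM), a ratio of 6779 (interval 3788 to 13580). Gzmd had 1 count and 82396 counts (3920 CPM), and the ratio of 84369 had a counting interval from 15142 to 3.33e+06. Gzmg had 1 count and 60925 counts (2898 CPM), with a ratio of 62384 (interval 11196 to 2.46e+06). Gzme had 1 count and 37860 counts (1801 CPM), with an interval from 6957 to 1.53e+06. Gzmf had 2 counts and 32741 counts (1557 CPM), with an interval from 4640 to 138419. The intervals of Gzmd, Gzme, Gzmf and Gzmg overlap, so the order of these ratios is not resolved. Summed over the overlapping pairs, Gzmd and Gzme together had 2 and 120256 counts (interval of the ratio 17043 to 508390), and Gzmc and Gzmf together had 13 and 105563 counts (4862 to 15616). These sums do not depend on how counts were divided within a pair. They do not restore reads that were left out or assigned to a member outside the pair.

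Gzmk, Gzmm and Gzmn stood apart from these 7. Gzmk had 31 counts (1.44 CPM) in the freshly isolated and 105 counts (4.99 CPM) in the expanded library, a ratio of 3.47 (interval 2.30 to 5.36). Gzmm, the granzyme M gene, went the other way, with 280 counts (13.01 CPM) in the freshly isolated and 39 counts (1.86 CPM) in the expanded library. It was 7.01-fold lower there (interval 5.00 to 10.07). Gzmn, the cluster member between Gzmg and Gzmf, had 0 counts and 32 counts (1.52 CPM). It was at least 10.9-fold higher against a floor of 3 counts (0.139 CPM) for freshly isolated cells, and the exact interval of the ratio starts at 8.38. Of the 50-base stretches of Gzmn, 6.06% occur in other granzyme transcripts. Whether reads from the far more abundant cluster genes are among its 32 counts was not tested.

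**Figure D1:**
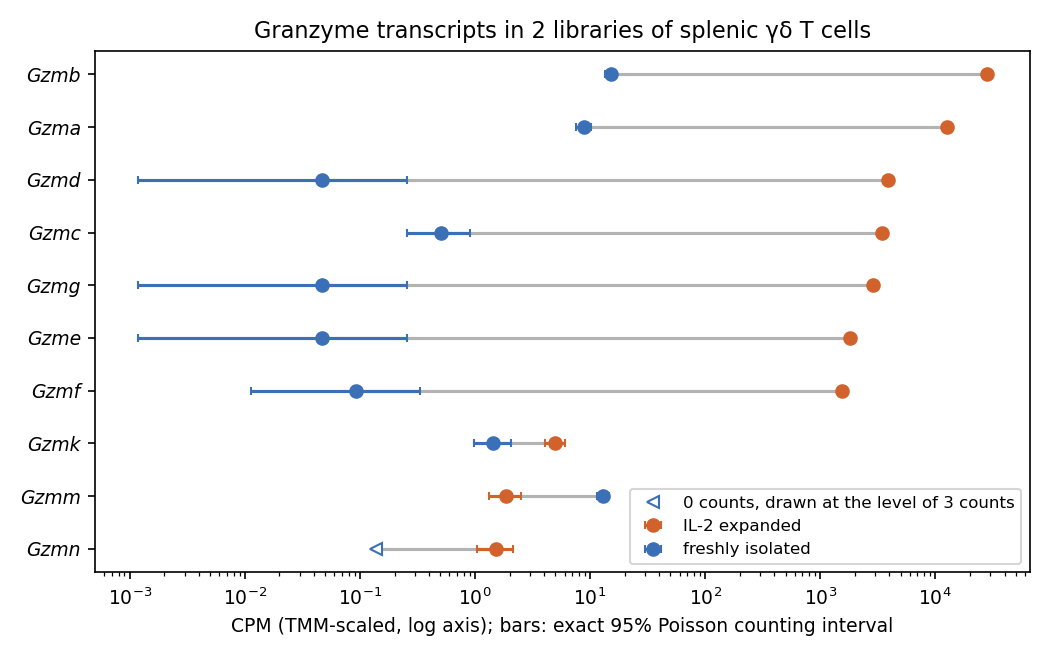
Level of each granzyme gene in CPM on a log axis, with blue for the freshly isolated and orange for the expanded library, bars for the exact 95% Poisson interval of the counts and an open triangle for 0 counts drawn at 0.139 CPM. Of the 10 genes, 7 reach 1557 to 28245 CPM in the expanded library, while Gzmk, Gzmm and Gzmn lie between 1.52 and 4.99 CPM there.

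By size of fold (log2 fold with a prior count of 2 added), 7 of the 10 were higher by 4-fold or more in expanded cells and Gzmm was lower by 4-fold or more. Gzmk was between 2-fold and 4-fold higher, and Gzmn, with a mean under 1 CPM, did not pass the filter on low levels. Gzmc to Gzmg passed that filter only through the expanded library. Of the 11715 genes whose mean CPM was 1 or more, 8.92% were higher and 13.5% lower by 4-fold or more; since the family was chosen on this contrast, nothing is read from the comparison of these shares. By log2 fold, Gzmd and Gzmg ranked 1 and 2 of the 11715 genes, Gzme 4, Gzmf 5, Gzmc 6, Gzmb 9 and Gzma 11. Gzmk ranked 1297 and Gzmm 10621. The ranks of genes with 0 to 2 counts in the freshly isolated library depend on the prior count, which also moves those around them: with 0.5 in place of 2, Gzme ranked 3, Gzmc 8, Gzmb 16 and Gzma 18, and with 5, Gzmb ranked 7 and Gzma 8.

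The family took a larger part of the expanded library and was made up differently in it. Granzyme counts summed to 843 (0.00414% of all counts, exact Clopper-Pearson interval 0.00386 to 0.00443) in the freshly isolated library and 1146286 (5.16%, interval 5.15 to 5.17) in the expanded library, a ratio of 1392 after scaling (interval 1301 to 1491). In the freshly isolated library, Gzmb gave 38.8% of granzyme counts (interval 35.5 to 42.2), Gzmm 33.2% (30.04 to 36.5) and Gzma 22.4% (19.6 to 25.4). In the expanded library, Gzmb gave 51.8% and Gzma 23.2%, while Gzmm gave 0.00340%. The share of Gzma in expanded cells lay within its interval in freshly isolated cells, while that of Gzmb was above its own. Gzmc to Gzmg and Gzmn together gave 1.90% (1.09 to 3.06) of granzyme counts in freshly isolated and 25.02% (24.9 to 25.1) in expanded cells.

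**Figure D2:**
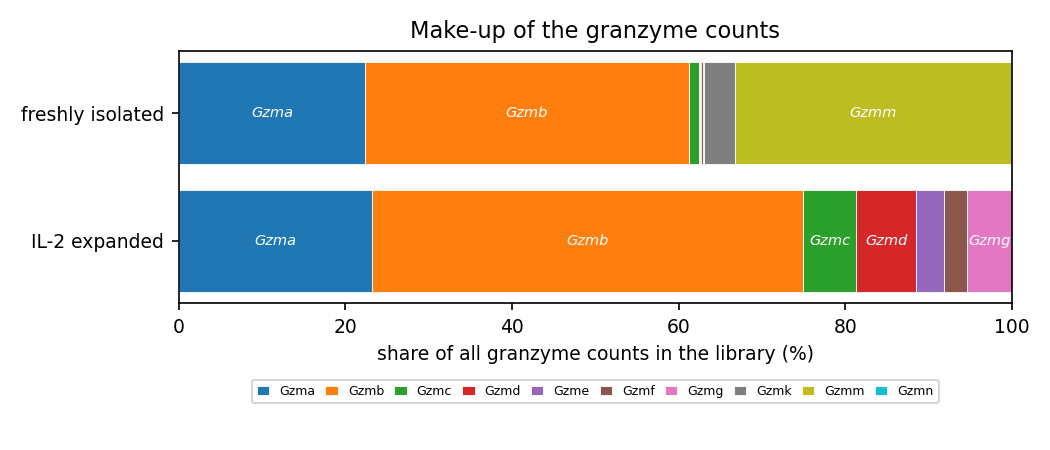
Share of each granzyme gene in all granzyme counts (percent) of the freshly isolated (843 counts) and expanded (1146286 counts) libraries, 1 bar per library. Gzmm fills 33.2% of the upper bar and is too thin to see in the lower bar, where Gzmc to Gzmg and Gzmn fill 25.02%.

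Per length of the longest annotated transcript, the order of levels in the expanded library was Gzmb at 19669 CPM per kb, Gzma at 12685, Gzmd at 4066, Gzmc at 3875, Gzmg at 3188, Gzme at 1966, Gzmf at 1695, Gzmk at 3.83, Gzmn at 1.54 and Gzmm at 1.44 CPM per kb. Counting intervals of neighbours in this order did not overlap except for Gzmn (1.05 to 2.17) and Gzmm (1.03 to 1.97). These intervals do not cover how reads were divided between genes with shared stretches or overlapping spans, so the order among Gzmc to Gzmg is uncertain. With the lengths of the deposited table, in which Gzme is longer, Gzme (1344 CPM per kb) came after Gzmf (1508), and with coding lengths Gzmm (2.34) came before Gzmn (2.05). In the freshly isolated library, Gzmb at 10.6 CPM per kb (9.46 to 11.8), Gzmm at 10.1 (8.96 to 11.4) and Gzma at 8.82 (7.60 to 10.2) led with intervals that overlap from each to the next. Gzmk followed at 1.10 (0.750 to 1.57) and Gzmc at 0.572 (0.285 to 1.02), which overlap too, and the other 5 genes had 0 to 2 counts.

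The sequences upstream of the start sites set Gzmc to Gzmg apart from Gzmn. In the 250 bases before each RefSeq start site (build GRCm38.p6; all 10 genes matched by symbol), the 10 pairs among Gzmc to Gzmg were identical at 70.2% to 94.8% of aligned positions. Gzmn shared 69.5% to 83.1% of coding positions with these 5 genes but 44.8% to 47.3% of upstream positions. Gzmb likewise shared 64.9% to 75.6% of coding but 44.1% to 47.2% of upstream positions with Gzmc to Gzmg. The 35 pairs other than those among Gzmc to Gzmg all lay at 42.6% to 49.5% upstream, also for genes on different chromosomes. Upstream sequences are printed for a near-identical pair (Gzmd and Gzme), for Gzmc, for both leading genes and for Gzmm, which was lower in the expanded library. Capitals mark matches, on either strand, to TGANTCA (AP-1), TGTGGT (Runx), GGTGTGA (T-box) or TTCNNNGAA (STAT), and all windows are on the strand of the gene.
Gzmd (chr14:56132594-56132843, minus strand): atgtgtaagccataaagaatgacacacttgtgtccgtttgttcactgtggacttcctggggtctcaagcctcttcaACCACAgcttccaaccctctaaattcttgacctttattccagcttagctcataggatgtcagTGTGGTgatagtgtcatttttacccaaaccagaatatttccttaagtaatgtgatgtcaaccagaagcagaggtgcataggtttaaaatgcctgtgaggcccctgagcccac
Gzme (chr14:56120626-56120875, minus strand): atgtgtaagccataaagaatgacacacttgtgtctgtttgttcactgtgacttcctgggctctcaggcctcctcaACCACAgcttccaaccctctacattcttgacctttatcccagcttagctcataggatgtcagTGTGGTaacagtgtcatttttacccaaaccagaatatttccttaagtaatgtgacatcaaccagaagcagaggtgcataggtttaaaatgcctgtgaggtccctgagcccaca
Gzmc (chr14:56234658-56234907, minus strand): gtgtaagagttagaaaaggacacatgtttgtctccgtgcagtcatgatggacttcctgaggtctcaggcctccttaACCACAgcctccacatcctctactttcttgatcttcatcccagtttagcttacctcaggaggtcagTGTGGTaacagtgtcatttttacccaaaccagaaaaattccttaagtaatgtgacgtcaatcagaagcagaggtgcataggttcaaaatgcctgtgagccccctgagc
Gzmb (chr14:56262335-56262584, minus strand): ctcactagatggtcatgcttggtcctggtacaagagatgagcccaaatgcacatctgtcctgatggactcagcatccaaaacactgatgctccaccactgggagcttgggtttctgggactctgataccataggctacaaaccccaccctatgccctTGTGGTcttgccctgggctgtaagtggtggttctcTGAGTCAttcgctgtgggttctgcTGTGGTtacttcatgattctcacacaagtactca
Gzma (chr13:113100982-113101231, minus strand): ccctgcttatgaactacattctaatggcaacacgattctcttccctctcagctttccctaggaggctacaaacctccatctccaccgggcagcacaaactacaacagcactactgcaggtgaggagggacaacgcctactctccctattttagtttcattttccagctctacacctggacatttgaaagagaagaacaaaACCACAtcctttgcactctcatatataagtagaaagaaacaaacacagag
Gzmm (chr10:79688770-79689019, plus strand): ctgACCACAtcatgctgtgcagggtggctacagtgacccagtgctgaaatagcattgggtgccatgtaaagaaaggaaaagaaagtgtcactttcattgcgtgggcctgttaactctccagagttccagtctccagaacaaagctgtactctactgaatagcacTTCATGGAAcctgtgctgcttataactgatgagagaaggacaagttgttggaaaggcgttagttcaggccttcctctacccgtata
The start site of Gzmb in RefSeq lies 74 bases outside its deposited span, and the windows of Gzme and Gzmf are those of their own RefSeq start sites, not of the longer deposited spans.

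The Runx letters were the motif most members shared. TGTGGT or its reverse complement was found upstream of 8 of the 10 genes, against 12.1% of 21086 promoter windows of the same length, and at 2 places in 6 genes, against 0.986% of windows. Gzmd, Gzme, Gzmf and Gzmg carried the 2 matches 62 bases apart, Gzmc 66 bases and Gzmb 59 bases apart. Since Gzmc to Gzmg share most of their upstream sequence, their matches are not separate observations. Gzma had 1 match, 50 bases before the start, and Gzmm 1 match at 247 bases, while Gzmk and Gzmn had none. An AP-1 match stood 58 bases before the start of Gzmb alone (6.36% of windows hold one), a STAT match at 86 bases in Gzmm alone (6.80%) and a T-box match at 75 bases in Gzmk alone (3.21%). The E-box letters CANNTG were found in 7 of 10 members and 63.01% of windows. AP-1 and Runx elements of the Gzmb promoter are known from earlier work as background; a match of letters is not a binding site, and no binding was measured here.

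**Figure D3:**
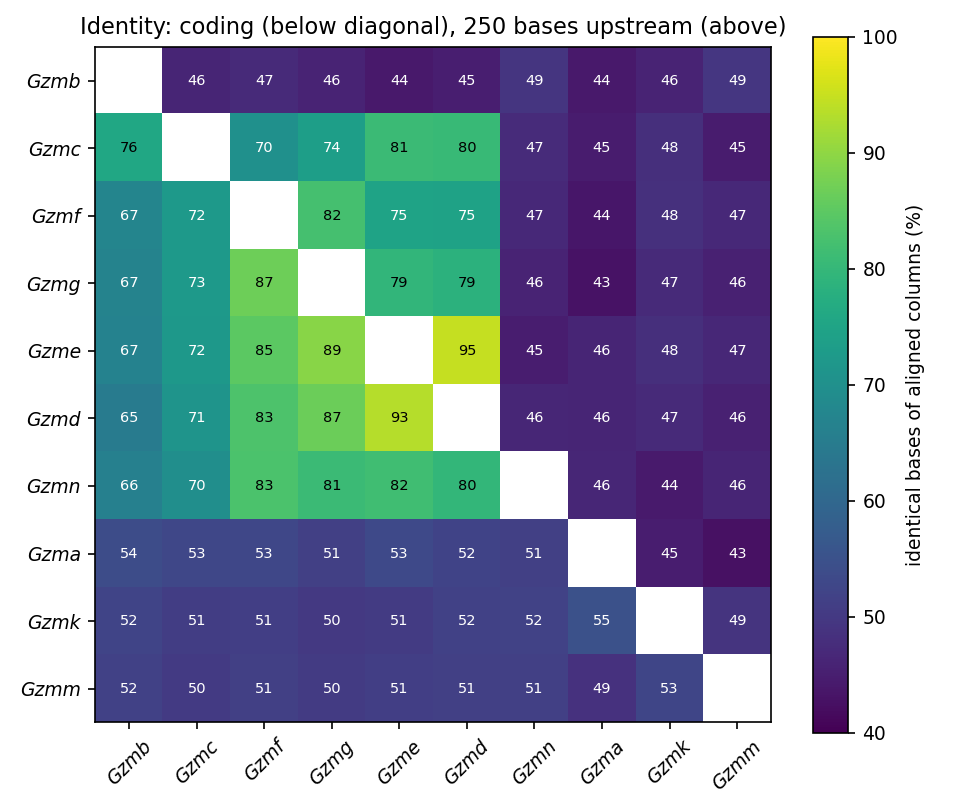
Identical bases as a percentage of aligned columns for each pair of granzyme genes, for coding sequences below the diagonal and for the 250 bases upstream above it. Gzmc to Gzmg form a block above the diagonal (70.2% to 94.8%). Below it, their pairs run from 71.1% to 93.3%. There Gzmc is closer to Gzmb (75.6%) than to Gzmd, Gzme, Gzmf or Gzmg (71.1% to 72.5%). Gzmn shares 69.5% to 83.1% of coding positions with Gzmc to Gzmg, lowest with Gzmc, but 44.8% to 47.3% of upstream positions.

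Genes beside the granzymes differed by place. Of 17 other genes within 250 kb of the chromosome 14 members, 7 had 0 counts in both libraries, and of the 6 that passed the filter, 2 were higher and 1 lower by 4-fold or more in expanded cells, against 8.92% and 13.5% of all measured genes. The higher genes were Ctsg, which encodes the serine protease cathepsin G, and Mcpt8, which encodes a basophil granule protease, and both lie next to the cluster, 15.045 and 32.4 kb from Gzme. Ctsg had 1 count and 639 counts (30.4 CPM), a ratio of 654 (interval 117 to 25883), and Mcpt8 had 2 counts and 359 counts (17.1 CPM), a ratio of 184 (50.5 to 1524). Both genes passed the filter only through the expanded library, so nothing is read from the comparison with the shares of all measured genes. The mast cell protease genes further along the same locus, Mcpt1, Mcpt2, Mcpt4, Mcpt9 and Cma2, were at 0 counts in both libraries, and Cma1 had 1 and 6 counts. The lower gene was Nynrin (2.56 and 0.190 CPM), 243 kb from Gzme. Among mast cell and basophil markers other than Mcpt8, Fcer1a, Ms4a2 and Gata2 had 3, 8 and 14 counts in the freshly isolated and 0 in the expanded library, Cpa3 had 26 and 11 counts, and Prss34 had 0 in both. Without Mcpt8, the other 9 markers summed to 46.8 and 23.4 CPM (46.9 and 40.5 CPM with it), mostly Kit (42.4 and 22.4 CPM), and 5 of the 10 were at 0 in the expanded library. Elane and Prtn3, the neutrophil proteases near Gzmm, had 2 and 4 counts and then 0, and S100a8 and S100a9 had 0 in the expanded library. Of the 11 serine protease genes listed for the loci of Gzmb and Gzmm, Ctsg and Mcpt8 were thus the 2 that passed the filter. Ly6g was the 1 neutrophil marker of 9 found at a higher level, with 0 counts and 17.8 CPM, at least 128-fold higher against the floor of 3 counts (exact interval from 103); 7 of the 9 were at 0 in expanded cells, and the list summed to 1.53 and 17.8 CPM. The part of such cells in the Ctsg and Mcpt8 values was not tested beyond these levels.

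On chromosome 13, 3 of 7 measured neighbours were higher and none was lower by 4-fold or more in expanded cells, against 8.92% and 13.5% of all measured genes. These 3, Gpx8, Esm1 and Cdc20b, passed the filter only through the expanded library, so nothing is read from the comparison of these shares. Gpx8, which encodes a glutathione peroxidase of the endoplasmic reticulum and lies 47.4 kb from Gzma, had 2 counts and 850 counts (40.4 CPM), a ratio of 435 (interval 120 to 3599). Esm1, which encodes the secreted proteoglycan endocan and lies 28.8 kb from Gzmk, had 3 counts and 929 counts (44.2 CPM), a ratio of 317 (108 to 1540). Cdc20b, on the opposite strand around Gpx8, had 0 and 44 counts (2.09 CPM), at least 15.02-fold higher against the floor of 3 counts (exact interval from 11.7), and without a stated use of strand its counts and those of Gpx8 cannot be told apart. Gzmk itself, between Gzma and Esm1, was 3.47-fold higher. Around Gzmm on chromosome 10, 2 of 14 measured neighbours were higher and none lower by 4-fold or more (8.92% and 13.5% of all measured genes). Cdc34, a ubiquitin-conjugating enzyme gene whose span ends 0.622 kb from Gzmm, stood at 41.7 and 142 CPM. Bsg, which encodes basigin and lies 9.10 kb away, stood at 144 and 401 CPM, and both were higher while Gzmm was lower. Of the 14, 4 were higher and 1 lower by 2-fold or more (22.4% and 25.0% of all measured genes), with a median log2 fold of 0.03. Polrmt (32.8 and 17.8 CPM), R3hdm4 (121 and 62.6 CPM) and E130317F20Rik (3.53 and 1.71 CPM) were among the lower ones. The genes past 4-fold there were Plpp2 (1.44 and 20.07 CPM) and Hcn2 (0.279 and 1.95 CPM), and Hcn2 passed the filter only through the expanded library.

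**Figure D4:**
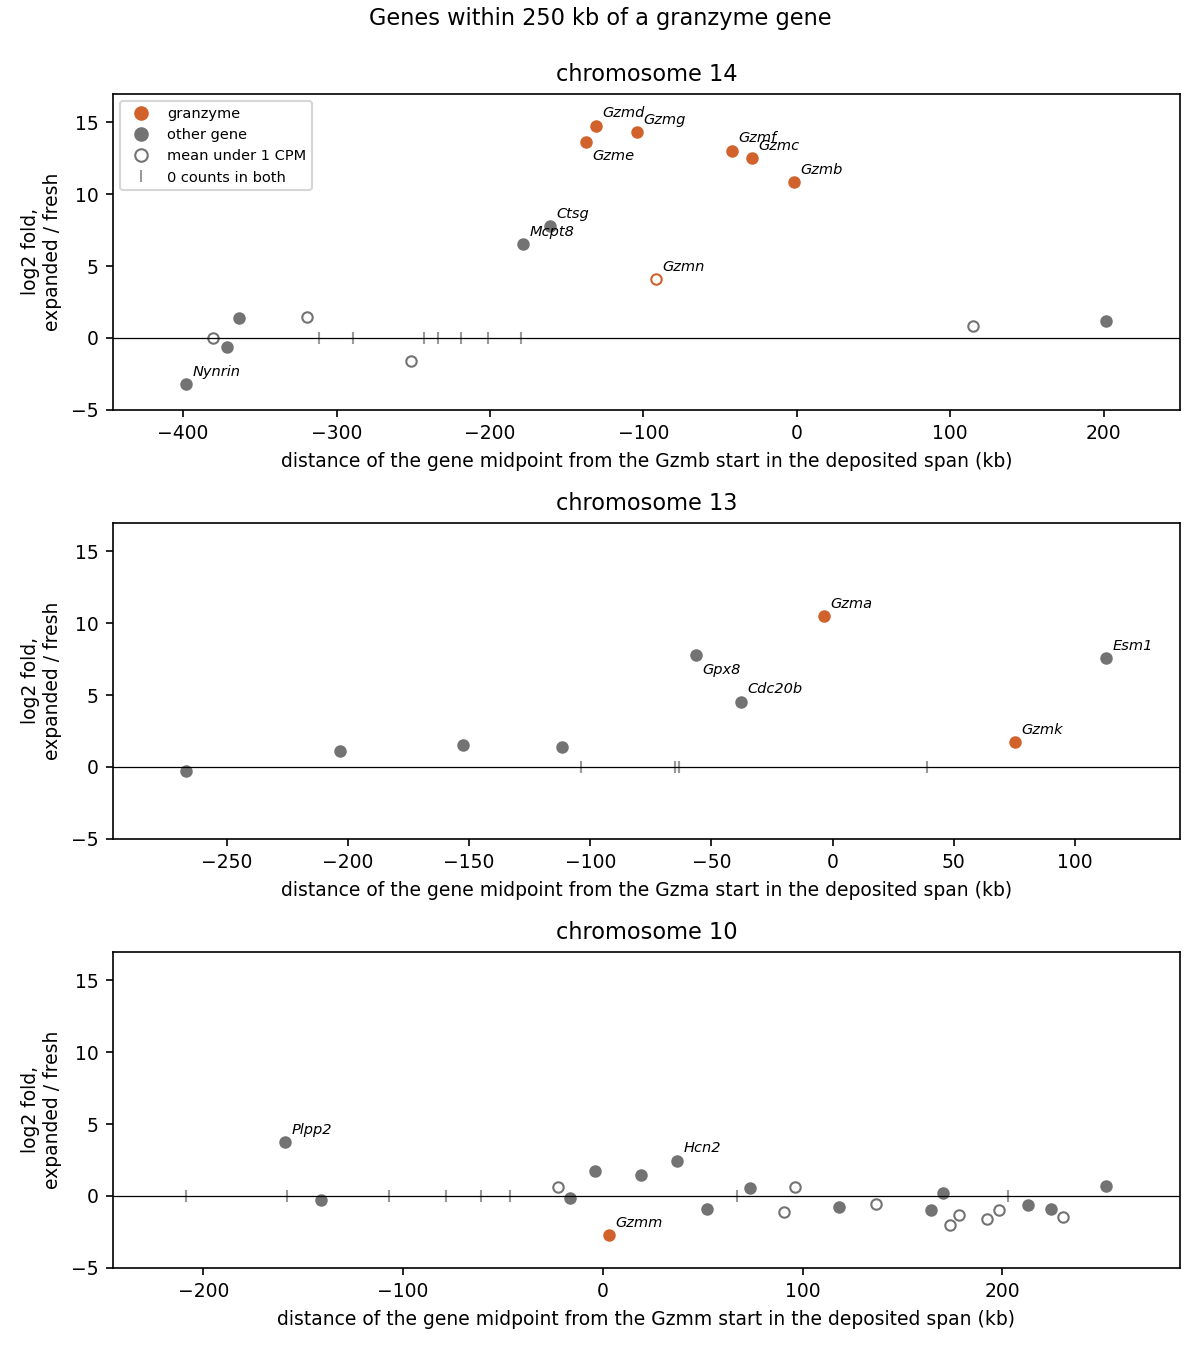
Log2 fold (expanded over freshly isolated, prior count 2) of every gene within 250 kb of a granzyme gene against the distance of its midpoint from the start of Gzmb, Gzma or Gzmm in kb, with granzymes in orange, other genes in grey, open symbols for a mean under 1 CPM and ticks for 0 counts in both libraries. Ctsg and Mcpt8 stand beside the chromosome 14 cluster and Gpx8, Cdc20b and Esm1 beside Gzma and Gzmk, while Gzmm lies below its neighbours.

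Genes that work with granzymes were next counted in lists, with 22.4% of the 11715 measured genes higher and 25.0% lower by 2-fold or more in expanded cells and a median log2 fold of 0.04. Of 15 granule cofactors (the pore former, the storage proteoglycan, processing proteases and the sorting receptors), 5 were higher and 3 lower by 2-fold or more, with a median of 0.56. Prf1, which encodes perforin, was 22.04-fold higher (81.0 and 1786 CPM, interval 21.01 to 23.1), and the granule membrane protein gene Cd63 was 6.97-fold higher (2.46 and 17.2 CPM), while Calr (calreticulin), Lamp2 and Nkg7 were the other 3 past 2-fold. Serglycin, the proteoglycan that holds granzymes in the granule (Srgn), stood at 586 and 822 CPM, and Ctsc, the protease that removes the propeptide of granzymes, at 184 and 146 CPM, both within 2-fold. The cathepsin genes Ctsh (39.8 and 0.523 CPM) and Ctsl (22.5 and 4.99 CPM) were lowest by ratio. Both cathepsins are also expressed by macrophages, whose 8 markers summed to 768 and 0.190 CPM, and the part of those cells was not tested. Of 15 measured genes of granule release, 10 lay within 2-fold, 3 were higher and 2 lower (median 0.39). Sytl2, a Rab27 effector, stood at 83.6 and 404 CPM, Vti1b at 55.5 and 131 CPM, Sytl1 at 29.4 and 11.1 CPM and Lyst, the gene of the lysosomal trafficking regulator, at 141 and 28.4 CPM.

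Of 11 serpin genes listed as inhibitors of granzymes, 7 were measured, of which 4 were higher and none lower by 2-fold or more (median 1.21). Of all measured genes, 22.4% were higher and 25.0% lower by 2-fold or more. Serpinb9, whose product inhibits granzyme B and shields the cytotoxic cell, was 8.66-fold higher (80.6 and 698 CPM, interval 8.24 to 9.11), and Serpinb9b had 5 counts and 62.7 CPM, a ratio of 270 (interval 115 to 833). Serpinb9b passed the filter only through the expanded library, so nothing is read from the comparison of the serpin counts with these shares. Serpinb6a stood at 34.3 and 247 CPM and Serpinb6b at 132 and 305 CPM, and Serpina3g (185 and 242 CPM) and Serpinb1a (13.1 and 15.9 CPM) lay within 2-fold. The 14 listed substrates cut by granzymes A or B in target cells were here measured in the T cells themselves. Of these, 5 were higher and none lower by 2-fold or more (median 0.56), against 22.4% and 25.0% of all measured genes. Nme1, which encodes a nucleoside diphosphate kinase, stood at 58.4 and 268 CPM, while Bid stood at 38.7 and 46.3 CPM and Anp32a and Dffb were 1.54-fold and 1.60-fold lower.

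Of 19 listed transcription factors known to act on granzyme genes or on effector differentiation, 11 were lower and 3 higher by 2-fold or more. The median was -1.55, and of all measured genes 25.0% were lower and 22.4% higher. The list joins activators with repressors and with naive and memory factors, so its pooled count and median give no direction of regulation. Some of the listed factors, such as Bcl6 and Bach2, are also expressed by B cells or by macrophages. Markers of B cells summed to 911 and 3.71 CPM and those of macrophages to 768 and 0.190 CPM. The part of those cells was not tested. Id2 (349 and 1537 CPM) and Prdm1, which encodes Blimp-1 (21.6 and 66.7 CPM), were furthest up. Tcf7, which encodes the naive and memory factor TCF-1, stood at 1932 and 8.18 CPM, which is 236-fold lower (203 to 276), and the repressor gene Bcl6 was 30.3-fold lower (64.9 and 2.14 CPM). Eomes, Runx3 and Tbx21, known as activators in cytotoxic lymphocytes, lay within 2-fold. Eomes stood at 370 and 362 CPM, Runx3 at 264 and 271 CPM, and Tbx21, which encodes T-bet, at 106 and 56.9 CPM. Runx1, of the same list, was 3.91-fold lower (77.3 and 19.7 CPM, interval 3.51 to 4.37). Of the IL-2 receptor chains, Il2ra was 43.8-fold higher (43.7 and 1913 CPM), while Il2rb (1241 and 2346 CPM) and Il2rg (1061 and 729 CPM) lay within 2-fold. Stat5a (113 and 38.7 CPM) and Stat5b (235 and 79.3 CPM), which carry the IL-2 signal, were both lower.

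**Figure D5:**
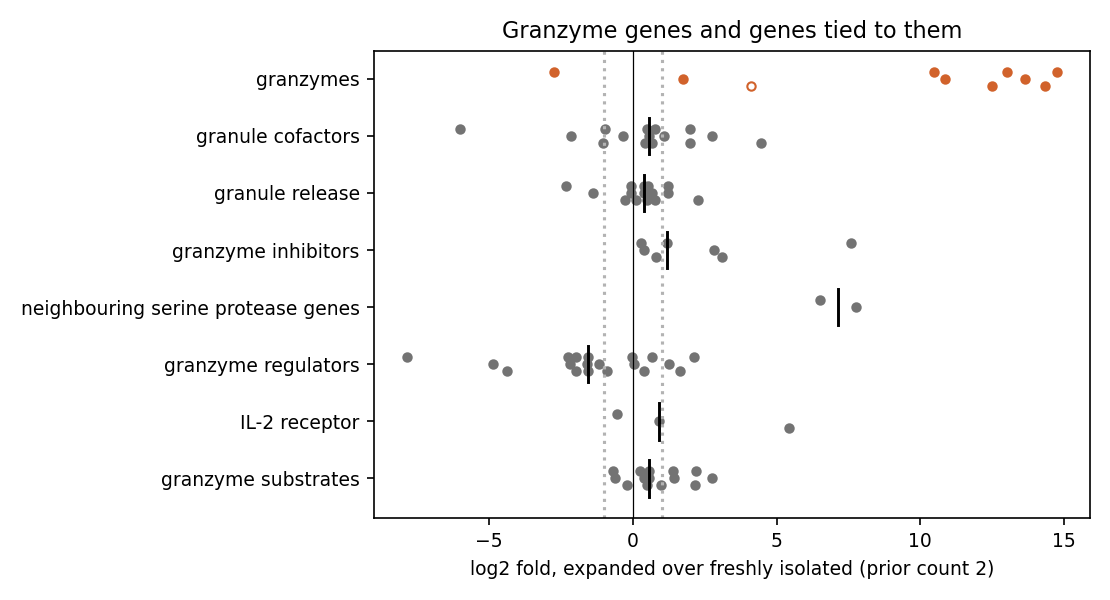
Log2 fold (expanded over freshly isolated, prior count 2) of each granzyme gene (orange, open for Gzmn with a mean under 1 CPM) and of each measured gene in 7 lists of related genes (grey), with black bars for list medians and dotted lines at 2-fold. The 7 granzymes on the right lie beyond all grey points, and the regulator list, which joins activators and repressors, has a median of -1.55.

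Markers of other cytotoxic cells that a sorted fraction could hold were set beside these values. Of 9 NK cell markers, 6 were measured, none higher and 3 lower by 2-fold or more in expanded cells, against 22.4% and 25.0% of all measured genes. The sum of the 9 was 613 and 437 CPM. Without Eomes, which also stands in the regulator list, the other 8 summed to 243 and 74.9 CPM. The NK receptor gene Ncr1 had 24.6 and 0.190 CPM (4 counts), and Klrb1c, which γδ T cells can also express, 179 and 53.3 CPM. Of 5 markers of CD4 and CD8 T cells, 1 was higher and 3 were lower by 2-fold or more (22.4% and 25.0% of all measured genes), with a sum of 33.03 and 11.9 CPM. Cd8a stood at 0.929 and 9.13 CPM, Cd8b1 at 6.83 and 0.618 CPM and Cd4 at 9.85 and 0.333 CPM. Plasmacytoid dendritic cells are known to express Gzmb, and Siglech, their defining marker, had 3 counts and 0 counts. The 6 markers of that cell type summed to 224 and 483 CPM, of which Irf8, also expressed by lymphocytes, gave 45.8 and 382 CPM. Bst2 (31.4 and 48.1 CPM) and Tcf4 (44.2 and 52.8 CPM) lay within 2-fold. Ly6d stood at 6.46 and 0.0476 CPM, and Ccr9 (96.03 CPM) was at 0 counts in expanded cells. The part of any of these cells in the granzyme values was not tested.

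The genes most like the family were sought as those whose log2 fold lay nearest to the median of the 10 members (11.67), among genes averaging 10 CPM or more. This measure rests on 2 libraries only. The 5 genes listed here start with Nov (0 counts and 301 CPM), Tnfrsf11b (0 counts and 233 CPM) and Il24 (0 counts and 117 CPM). Ppp2r2c (0 counts and 87.5 CPM) and Spp1 (4 counts and 3741 CPM) follow, and the distances run from 0.02 to 2.04 on the log2 scale. They are not the 5 nearest of all genes averaging 10 CPM or more. By rank of log2 fold, a gene that is not named stood between Gzmb (10.85) and Gzma (10.48). That gene lay nearer to 11.67 than Il24, Ppp2r2c and Spp1. Spp1, which encodes osteopontin, was the 1 gene of the 5 listed with a level in the expanded library in the range of Gzmc to Gzmg. For the other 4, at 0 counts in the freshly isolated library, the log2 fold depends on the prior count.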

How the data were processed

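The authors' deposited table holds read counts per gene for 2 libraries, not normalised, and gene lengths in kb. Per the submitters' processing notes, the tools include HTSeq 0.6.0, edgeR 3.28.1, STAR 2.6.0 and bcl2fastq 2.18.0.12, with builds mm10 and GRCm38; settings, annotation and strand use are not given in the sources used here. Here, counts were scaled with TMM factors (edgeR 4.0.16, R 4.3.3). Log2 folds used a prior count of 2 and single-gene ratios plain CPM. Counts by fold cover the 11715 genes averaging 1 CPM or more. Intervals are exact 95% ones (Clopper-Pearson; Poisson for levels); reads without molecular identifiers are not independent, so they cover counting error only. The calculation was tested on simulated data. The family, lists and alternatives were chosen with earlier results of these data known. Names follow a rule: all 10 members, the 2 furthest up and down of each list and set genes. The rule also covers measured neighbours within 250 kb, top markers and the 5 listed genes alike in log2 fold. A selection is printed. Further list members (such as Calr, Serpinb6a, Bid, Stat5a and single markers) were picked after their values were seen. Coding sequences (GENCODE M21, longest coding) were aligned globally with Biopython 1.88. No list was tested. 1 gene named by the rule is not reported here.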

Additional observations from a re-analysis of the deposited data

How the results depend on the processing

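Alternatives were scaling by total count, DESeq2 1.42.0 size factors, upper quartiles and total count without the granzyme genes, prior counts of 0.5 and 5, no filter or a mean of at least 5 CPM, and 2-fold or 10-fold in place of 4-fold. No log2 fold of a member changed sign in these. The count of members at least 4-fold higher was 7 to 8 over the scalings, prior counts and filters (8 with Gzmn, without a filter). At 10-fold, 0 members were lower, since Gzmm was 7.01-fold lower. With a mean of at least 5 CPM, 992 of all genes were at least 4-fold lower, against 1578. Without a filter, 1 neighbouring serine protease gene was at least 2-fold lower, against 0. Without the 50 most abundant other genes, the granzyme share was 0.00472% in the freshly isolated and 5.91% in the expanded library. Log2 folds ranged from 10.69 to 10.86 for Gzmb, 13.77 to 15.77 for Gzmd, 2.90 to 6.04 for Gzmn and -2.90 to -2.66 for Gzmm, widest with the prior count where the freshly isolated library had 0 or 1 count. Scaling by total count moved the median log2 fold of all genes from 0.04 to -0.12. Levels per kb from merged exon lengths kept the order of the members in both libraries; those from the deposited lengths, ranks by prior count and marker sums without Eomes or Mcpt8 were added after seeing the data. With 1 library in each group, no library could be left out. No paired analysis was possible because each group has 1 library.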
